A study of Mus musculus with 10 samples.

Results

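Fndc5, 1 of 20009 genes with at least 1 count in the series, encodes the membrane precursor of irisin. It was chosen by its measured difference between soleus and tibialis anterior (TA), so its values between the muscles are a description and carry no test. RNA sequencing libraries were made from soleus, a calf muscle richer in slow-twitch fibers, and TA, a fast-twitch shin muscle, of wild-type mice. The groups were soleus of males (n = 3), soleus of females (n = 2), TA of males (n = 3) and TA of females (n = 2). The sources used here give neither strain nor age. Fndc5 had 3270 counts in all, 2737 in soleus and 533 in TA (5 libraries each). The level fell in the order male soleus, female soleus, female TA and male TA.

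The Fndc5 protein is made with a signal peptide, a fibronectin type III domain, a transmembrane segment and a short tail inside the cell. Its outer part is released as irisin, a hormone-like factor described as a link from working muscle to fat, bone and brain. The gene is best known as a target of Ppargc1a, the coactivator that drives mitochondrial and slow-fiber programs after endurance exercise.

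The annotation (GENCODE M21, GRCm38) gives Fndc5 on chromosome 4 from 129136999 to 129144593, on the plus strand. It holds 1 transcript of 6 exons and 2763 bases, of which 627 are coding (209 codons, the stop left out). The last exon, 129142535 to 129144593, is 2059 bases long and consists almost wholly of 3′ UTR. Every Fndc5 count in the files lay on this 1 transcript, so the values below cannot reflect a shift between annotated isoforms. Of its 2733 distinct 31-mers, 99.6% occurred in no other annotated transcript. No annotated gene overlapped it. The 2 stretches below come from the start of the gene. The first is the DNA before the first annotated start, that of RefSeq (GRCm38.p6, chr4:129136749-129136869, plus strand, from the RefSeq promoter table). This stretch lies within the noncoding gene Gm15906 (129135091 to 129136910, plus strand). The second is the coding part of exon 1 (GRCm38, chr4:129137079-129137163, plus strand, from the GENCODE transcript). Capitals mark GC boxes in the first, read as GGGCGG on either strand, and the start codon in the second.
Fndc5 upstream: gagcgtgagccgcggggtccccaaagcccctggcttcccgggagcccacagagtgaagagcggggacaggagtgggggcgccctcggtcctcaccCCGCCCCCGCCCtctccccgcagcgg
Fndc5 exon 1 coding: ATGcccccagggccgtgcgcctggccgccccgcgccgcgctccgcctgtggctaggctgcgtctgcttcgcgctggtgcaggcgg

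The whole 300-base promoter window of Fndc5 was 82.3% G and C, against a median of 52.7% over the 32851 windows of the RefSeq table. It held 5 matches to the GC box GGGCGG, a motif that 35.7% of windows hold at least once. It held no match, on either strand, to the cyclic AMP element TGACGTCA (in 1.79% of windows), the estrogen-related receptor element TNAAGGTCA (1.28%) or the E-box CANNTG (72.3%). These matches describe the letters of this window only.

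Libraries held 726075 to 961237 counts on annotated genes. The labelled muscles matched their defining markers, though some of these passed the filter on low counts through 1 muscle only. Tnni1 and Myl2 had 0 counts in TA, and Myh4 had 1 in soleus. Each of the 9 slow sarcomere genes that could be tested was called higher in soleus, where the list summed to 7849 to 10459 counts-per-million (CPM) against 28.2 to 73.3 in TA. Of 11 genes of the fast sarcomere, 10 were called higher in TA (all but Tnnt3, log2 difference -0.25), which had 66616 to 88525 CPM on that list against 12729 to 18970 in soleus. Soleus of female 2 stood apart, with 22862 transcripts listed against 14993 to 16575 in the other libraries and a mean Spearman correlation of 0.749 with the other soleus libraries, against 0.851 to 0.857 for those. The fitted Fndc5 differences and the marker sums that rest on it are also given without it.

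In soleus of males, Fndc5 stood at 1070, 807 and 791 CPM in replicates 1, 2 and 3, from 915, 603 and 644 counts. In soleus of females it stood at 406 and 305 CPM, from 308 and 267 counts. Both female values were under every male value in this muscle, and both were above every TA library. In TA of females Fndc5 was at 177 and 117 CPM, from 152 and 116 counts. In TA of males it was at 107, 99.6 and 97.1 CPM, from 95, 86 and 84 counts. The TA libraries of males differed by little, while both female ones were above them. The 95% exact Poisson intervals, which cover counting error only, were 269 to 344 CPM for the lowest soleus library and 150 to 207 CPM for the highest TA library. In these bulk samples, fewer cells of a type and less RNA per cell cannot be told apart.

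**Figure D1:**
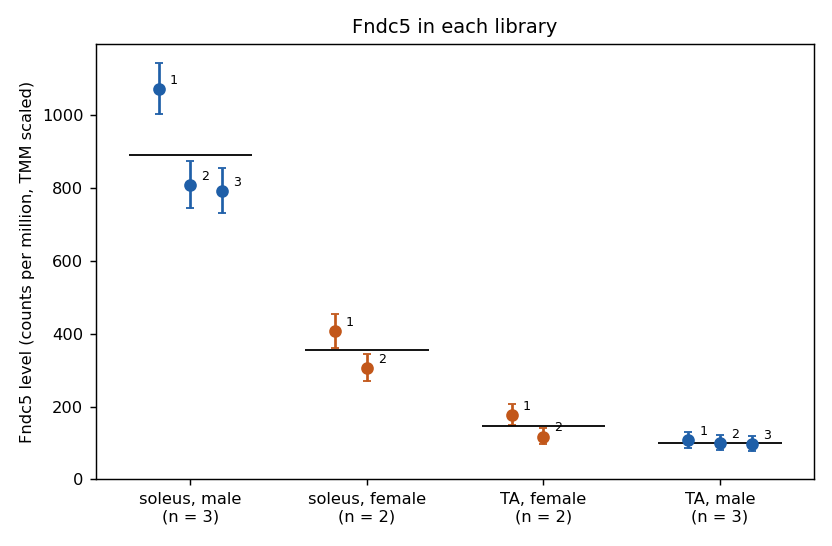
Fndc5 level in CPM (vertical axis) for each library, by muscle and sex, with the replicate number beside each point. Bars are 95% exact Poisson intervals and horizontal lines are group means: 890 CPM in male soleus, 355 in female soleus, 147 in female TA and 101 in male TA.

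The group means were 890 ± 157 CPM in male soleus (SD, n = 3), 355 ± 71.4 in female soleus (SD, n = 2), 147 ± 42.5 in female TA (SD, n = 2) and 101 ± 5.22 in male TA (SD, n = 3). Fitted over both sexes, Fndc5 was higher in soleus by 2.40 on the log2 scale (SE 0.32), or 5.26-fold. Of 5115 genes tested, 114 had a larger log2 difference toward soleus, and 11.0% were called higher there (adjusted p under 0.05). Nothing is read from that share for Fndc5, since this contrast chose it. Without soleus of female 2 the log2 difference was 2.69. Markers of other cells also differed between the muscles. Adipocyte markers summed to 21.1 to 32.1 CPM in soleus, above all TA libraries (2.26 to 6.98 CPM). Its 1 tested member of 6, Adipoq, was called higher in soleus. Adipoq passed the filter on low counts through soleus alone, with at most 3 counts in a TA library. Lep and Cidec had no count in TA and only 7 and 3 in soleus. Endothelial markers summed to 195 to 292 CPM in soleus and 287 to 843 in TA, with 2 of 3 tested members called higher in TA. Tendon cell markers summed to 278 to 1021 CPM in soleus and 154 to 685 in TA, with 1 of 5 called higher in soleus. The low of 278 was soleus of female 2, and without it soleus had 763 to 1021 CPM, with no overlap with TA. Smooth muscle and pericyte markers summed to 401 to 641 CPM in soleus and 588 to 1166 in TA. Of 3 tested members, 2 were called higher in TA. Satellite cell markers summed to 61.6 to 246 CPM in soleus (to 157 without female 2) and 46.2 to 78.5 in TA. Of 2 tested members, 1 was called higher in soleus. Of 4 tested fibro-adipogenic cell markers, 1 was called in each direction. The macrophage, Schwann cell and nerve, and red blood cell lists had no member called. The part of these markers in the Fndc5 values was not tested.

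Within each animal number, Fndc5 was higher in soleus in 5 of 5 mice. Soleus exceeded TA 9.99-fold, 8.10-fold and 8.15-fold in males 1, 2 and 3. In females 1 and 2 it exceeded TA 2.30-fold and 2.61-fold. The ratios of the sexes did not overlap, and the highest female ratio was far under the lowest male one.

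**Figure D2:**
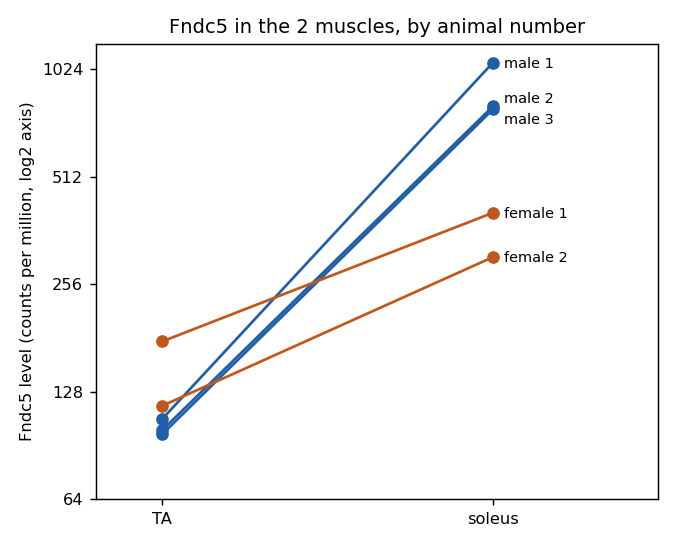
Fndc5 level in CPM (vertical axis, log2 scale) in TA and soleus, with a line joining the 2 libraries of 1 animal number. All 5 lines rise toward soleus, from 8.10-fold to 9.99-fold in males (blue) and 2.30-fold and 2.61-fold in females (orange).

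Sex was not part of the rule that chose Fndc5, so it was tested within each muscle. The library values in these tests also entered that rule, so the Fndc5 p-values for sex may not be independent of the choice. In soleus Fndc5 was 2.50-fold lower in females (log2 difference -1.32, SE 0.24) (edgeR adjusted p = 0.0433 over 5115 genes). Across all genes 0.547% were called for sex in soleus, 28 of 5115, and Fndc5 was at rank 19 by p. That count was 16 without soleus of female 2 and ran from 1 (without soleus of male 1) to 1022 (without soleus of female 1). The 2 females were below all 3 males. An exact permutation test (2-sided, 10 splits) gave p = 0.1, the smallest it allows. The call was narrow. It was lost without soleus of female 2 (log2 difference -1.13, adjusted p = 0.19), without soleus of male 1 (-1.17, 0.146), 2 (-1.39, 0.114) or 3 (-1.40, 0.0914), and without TA of male 1 (-1.33, 0.0765), 2 (-1.33, 0.0762) or 3 (-1.32, 0.0708). A fit on the 5 soleus libraries alone, added after the data were seen, gave -1.31 with an adjusted p of 0.14. The DESeq2 Wald test called it (-1.32, adjusted p = 0.000491). With 2 females and 3 males, sex cannot be told apart from other ways in which these mice differed.

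**Figure D3:**
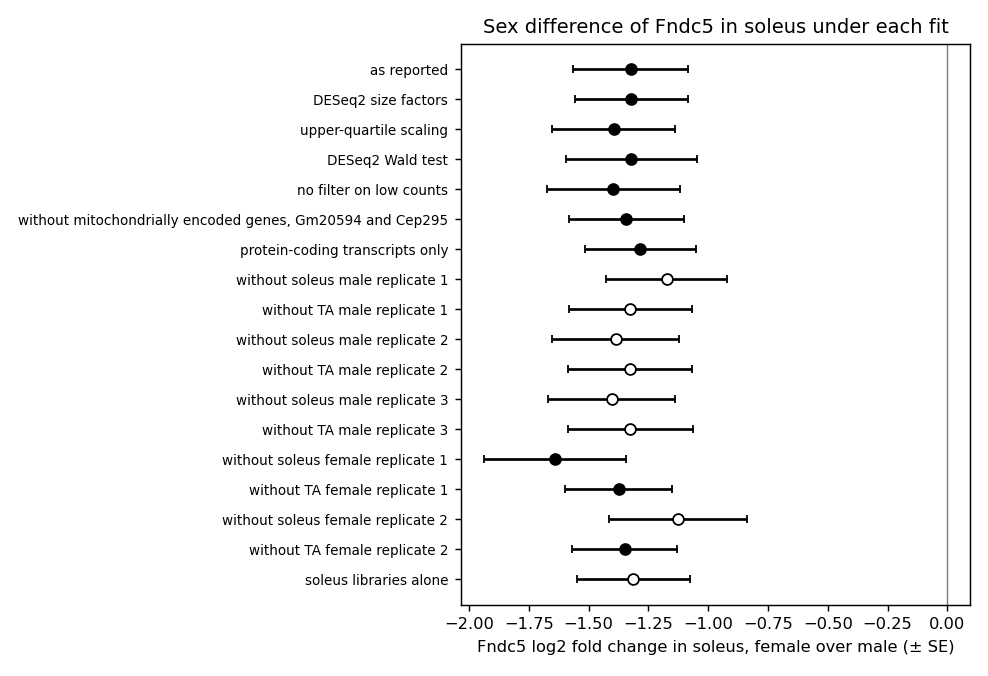
Fndc5 log2 fold change in soleus, female over male (horizontal axis, bars are SE), under the reported fit and each alternative (rows). Filled points had an adjusted p under 0.05; every point lies below 0, between -1.64 and -1.13.

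Other genes differed between the sexes in the same soleus libraries. Red blood cell genes (Hba-a2, Hbb-bs, Hbb-bt, Hba-a1 and Alas2) summed to 14193 to 36755 CPM in male soleus and to 260 to 2522 in female soleus, where Hba-a1 and Alas2 were at 0 in female 1. None of the 5 was called by edgeR (median log2 difference -3.91). Smooth muscle and pericyte markers summed to 526 to 641 CPM in males and 401 to 488 in females, with 0 of 3 tested members called. Macrophage markers summed to 551 to 907 and 222 to 543 CPM, with 0 of 3 called. Of those 3, Lyz2 separated the sexes (309 to 487 counts in males, 218 and 97 in females). C1qa (73 to 96, against 110 and 36) and Mrc1 (56 to 86, against 73 and 59) overlapped. Satellite cell markers went the other way, 61.6 to 90.9 CPM in males and 157 to 246 in females, and 1 of 2 tested, Sdc4, was called higher in females. Sdc4 made up most of that sum, with 43, 31 and 54 counts in males and 90 and 161 in females. Pax7 overlapped, with 3, 2 and 4 counts in males and 9 and 1 in females. The red blood cell, smooth muscle and pericyte, macrophage and satellite cell lists are the 4 of 9 cell type lists that did not overlap between the sexes. The other 5 overlapped. The share of all genes separated in this way was not computed. Since 2 females and 3 males can separate by chance, nothing is read from this count. Without soleus of female 2, the remaining female had 260 CPM on the red blood cell list, 401 on the smooth muscle and pericyte list, 543 on the macrophage list and 157 on the satellite cell list. The slow sarcomere list was also slightly lower in female soleus (7849 to 9402 CPM, against 9422 to 10459). Of its members 0 of 9 were called, with a median log2 difference of -0.24. The fast list summed higher in female soleus (15605 to 18970 CPM, against 12729 to 14374), with 0 of 11 called. Atp2a1 made up most of that sum, with 6969, 6685 and 6428 counts in males and 9209 and 10666 in females. Tnnc2 overlapped, with 3629, 2946 and 2810 counts in males and 3941 and 2117 in females. Without soleus of female 2, the remaining female had 7849 CPM on the slow list and 18970 on the fast list. The log2 differences ran from -0.83 to 0.13 for the slow sarcomere genes and from -1.93 (Myh4) to 2.22 (Pvalb) for the fast ones. Both ends for the fast genes rest on very few counts, since Myh4 had 1 and Pvalb 5 over soleus. The part of these markers in the Fndc5 difference was not tested.

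In TA the sexes were in the opposite order. Fndc5 was higher in females by 0.53 on the log2 scale (SE 0.24), which did not pass (edgeR adjusted p = 0.42), and 0.645% of all genes, 33, were called there (1 to 162 with 1 library left out). Both females exceeded all 3 males, an exact 2-sided permutation p of 0.1, the smallest that 10 splits allow. The counting interval of female 2 (96.4 to 140 CPM) overlapped that of male 1 (86.7 to 131 CPM), so the order of these neighbours is within counting error. Without TA of female 1 the difference was 0.20. Of 9 cell type lists, 5 did not overlap between the sexes in TA. As in soleus, the share over all genes was not computed and nothing is read from this count. The tendon cell list summed higher in females, as Fndc5 did (494 to 685 CPM, against 154 to 333 in males). The satellite cell list did so too (71.0 to 78.5, against 46.2 to 63.6). Its 2 tested members went opposite ways, Sdc4 by 1.03 and Vcam1 by -0.78 on the log2 scale. The Schwann cell and nerve list was also higher in females (18.6 to 26.2, against 10.1 to 17.4), from few counts. Mbp, its 1 tested member, overlapped (5 to 8 counts in males, 7 and 12 in females). Lower in females were the red blood cell list (1562 to 4454 CPM, against 6239 to 21705) and the smooth muscle and pericyte list (588 to 775, against 907 to 1166). None of the tested members of these 5 lists was called, and their part in the Fndc5 values was not tested.

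The muscle difference of Fndc5 was smaller in females, with a log2 difference of -1.86 (SE 0.34) between the sexes. The soleus to TA ratios by animal number were part of the rule, and this value is the difference of those ratios between the sexes, so it is a description with no test. It was -1.83 in a fit with each animal number as a replicate block. It ran from -2.15 (without soleus of female 1) to -1.57 (without TA of female 1) over the 10 fits that left out 1 library, and was -1.64 without soleus of female 2. Over all genes, edgeR called 0% for the interaction of muscle and sex, 0 of 5115, with 351 at an unadjusted p under 0.05, and DESeq2 called 6. Without soleus of female 1 edgeR called 79, and without soleus of female 2 it called 4.

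The list of regulators held 23 genes of the coactivator Ppargc1a, its partner receptors, calcium and energy signals, MEF2 factors and the myostatin pathway. All 23 had counts and 12 were tested. None was called higher in soleus and 2 were called higher in TA, against 11.0% of all tested genes in each direction, with a list median of -0.01 beside 0.01 over all genes. Ppargc1a itself was nearly level between the muscles (log2 difference -0.08, SE 0.29, edgeR adjusted p = 0.887), and the sign changed without soleus of male 1, 2 or 3 or TA of male 1 or 3. In soleus it stood at 26.9, 28.1 and 29.5 CPM in males and at 60.6 and 89.1 CPM in females, so the sexes did not overlap and their order was the reverse of that of Fndc5. That difference, 1.41 on the log2 scale (SE 0.28), did not pass (adjusted p = 0.0528). It was called by the DESeq2 Wald test (adjusted p = 0.0247), with protein-coding transcripts only (0.0454), with no filter on low counts (0.007) and without soleus of female 1 (0.00399), and without soleus of female 2 it was 1.11 (edgeR adjusted p = 0.304). In TA, Ppargc1a stood at 33.6 to 55.5 CPM in males and 38.2 and 48.9 CPM in females, with overlap.

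Esrra, the estrogen-related receptor that works with the Ppargc1a product, was at 58.2 to 115 CPM in soleus and 36.2 to 67.7 CPM in TA, a log2 difference of 0.50 (SE 0.18) that did not pass (edgeR adjusted p = 0.0616). It was higher in soleus in 5 of 5 mice, though in female 1 only after scaling (48 counts in soleus, 53 in TA). Esrra passed with each animal number as a replicate block (edgeR adjusted p = 0.0403) and with protein-coding transcripts only (0.0445). It was also called without TA of female 1 and without soleus of female 2 (log2 differences 0.62 and 0.57). The 2 called genes were Prkaa2 and Smad3. Prkaa2, a catalytic subunit of the energy sensor AMPK, was higher in TA by a log2 difference of -1.09 (SE 0.14, edgeR adjusted p = 0.000141), with 325 to 436 CPM in soleus and 669 to 949 in TA. Smad3, which carries myostatin and TGF-beta signals and has been described as a repressor of Fndc5, was higher in TA (-1.32, SE 0.25, adjusted p = 0.00224), with 67.4 to 170 CPM in soleus and 221 to 400 in TA. Both were higher in TA in 5 of 5 mice. The share of all genes with the same order in 5 of 5 mice is not given here, for these or for Esrra. Creb1, a cyclic AMP responsive factor, did not pass (-0.63, SE 0.22, adjusted p = 0.0568). Its adjusted p was 0.0166 without soleus of female 1. No member of this list was called for sex in soleus or in TA.

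**Figure D4:**
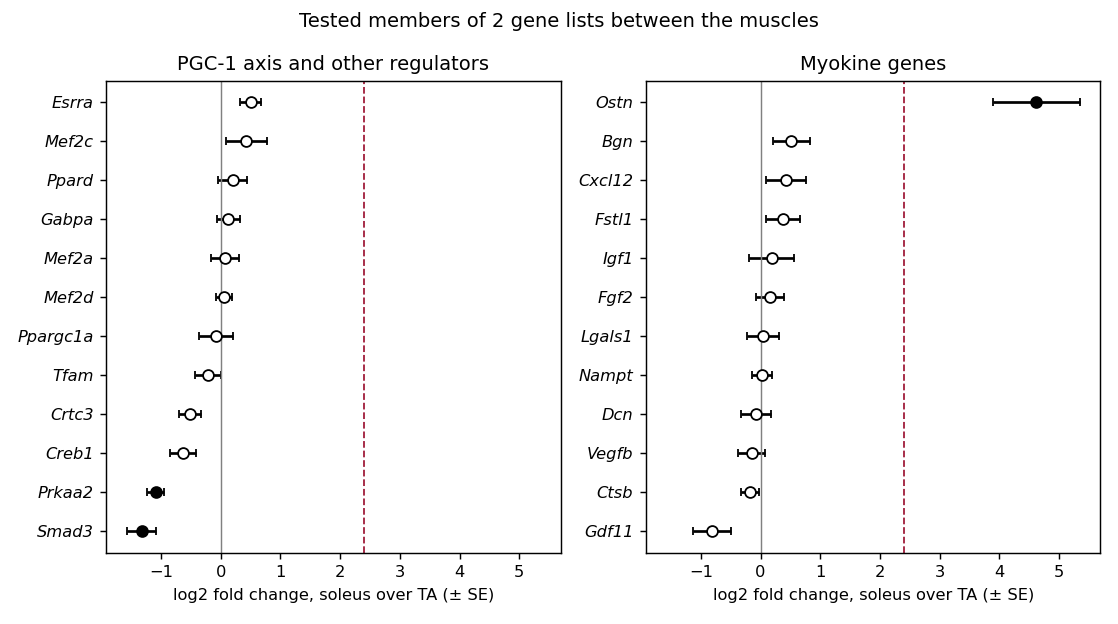
Log2 fold change of soleus over TA (horizontal axis, bars are SE) for the 12 tested members of the regulator list (left) and the 12 tested members of the myokine list (right). Filled points had an adjusted p under 0.05; the dashed line is the value of Fndc5, 2.40, which Ostn alone exceeds.

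Myokines are proteins that muscle secretes, the class to which irisin belongs. Of 30 listed, Fndc5 left out, 28 had counts and 12 were tested. Of the 12, 1 (Ostn) was called higher in soleus and 0 were called higher in TA, beside 11.0% of all tested genes in each direction, so the soleus share is near that of all genes. The list had a median log2 difference of 0.10, against 0.01 over all genes. Ostn encodes musclin, a small peptide that binds the natriuretic peptide clearance receptor. It stood at 166, 107 and 156 CPM in soleus of males 1, 2 and 3 and at 21.1 and 46.8 CPM in soleus of females. In TA it was at 2.26, 1.16 and 0 CPM in males and at 14.0 and 0 CPM in females. The muscles did not overlap, and Ostn was higher in soleus by 4.62 on the log2 scale (SE 0.73, edgeR adjusted p = 0.000654). Without TA of female 1 the log2 difference was 6.85. With 15 counts over TA, Ostn passed the filter on low counts through soleus. In soleus both females were below all males, as for Fndc5, with a log2 difference of -2.06 (SE 0.57) that did not pass (adjusted p = 0.111).

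None of the other 11 tested myokines was called between the muscles. Fstl1, a follistatin-like glycoprotein, differed by 0.37 (SE 0.28) on the log2 scale, Ctsb, the protease cathepsin B, by -0.18 (SE 0.15), and Nampt, an NAD-making enzyme that is also secreted, by 0.03 (SE 0.17). Gdf11, a relative of myostatin, differed by -0.81 (SE 0.31), which did not pass (edgeR adjusted p = 0.0842). Mstn, myostatin itself, was too low to be tested: it had no count in soleus and 4 to 14 counts in each TA library, and was at least 13.6-fold higher in TA against a floor of 3 counts over the soleus group. Il6 and Il15, interleukins described as muscle signals, had 4 and 4 counts over soleus and 2 and 5 over TA. No tested myokine was called for sex in soleus.

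Genes proposed to release irisin or to receive its signal were sparse. Of 9 listed, all had counts and 2 were tested, neither called between the muscles or between the sexes. Itgb1, a beta integrin, differed by 0.21 on the log2 scale (SE 0.16, edgeR adjusted p = 0.41). Adam10, a sheddase proposed to cut Fndc5 at the membrane, differed by -0.11 (SE 0.23, adjusted p = 0.8) and changed sign without soleus of female 2 (0.04). Itgav and Itgb5, the pair described as an irisin receptor, had 22 and 16 counts over soleus and 20 and 23 over TA, too few to test.

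Of 9 genes known as responses to irisin in other tissues, 7 had counts and 2 were tested. Cidea, a lipid droplet protein of thermogenic fat, was higher in soleus by 2.52 on the log2 scale (SE 0.49, edgeR adjusted p = 0.0029), with 9.14 to 17.1 CPM in soleus and 0 to 3.49 in TA. With at most 3 counts in a TA library, Cidea passed the filter on low counts through soleus alone. Cidea is also expressed by adipocytes, whose markers had the levels given above, and the part of those cells was not tested. Dio2, a deiodinase that activates thyroid hormone, did not pass (1.12, SE 0.52, adjusted p = 0.15). Bdnf, a neurotrophin, had 19 counts over soleus and 7 over TA.

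Relatives of Fndc5 share its fibronectin type III fold. Of the other 10 genes named Fndc, 9 had counts and 2 were tested, with neither called between the muscles. Fndc1 differed by 0.26 on the log2 scale (SE 0.36) and Fndc3a by 0.46 (SE 0.49), the latter changing sign without soleus of female 2 (-0.12). Fndc4, the closest relative of Fndc5 in protein sequence, had 1 count in soleus and 0 in TA.

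The tested genes around Fndc5 given here were not called between the muscles. Upstream, Hpca and Tmem54 had 1 count each over all libraries, and the long noncoding gene Gm15906, which ends just before the GENCODE start of Fndc5, had none. Downstream, S100pbp had 10 counts. Yars, a tyrosine tRNA synthetase and the nearest tested gene on the higher side (45166 bases away), differed by 0.20 on the log2 scale (SE 0.22, edgeR adjusted p = 0.567). Sync, an intermediate filament protein of muscle 143023 bases away, differed by -0.13 (SE 0.30), a value that changed sign without soleus of female 2 (0.03) or of male 2 (0.02). On the lower side, Gja4, a connexin of small arteries 1822959 bases away, differed by -0.74 (SE 0.45).

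The 6 genes whose log2 CPM followed Fndc5 most closely over the 10 libraries, among 4222 genes averaging 10 CPM or more, were Pcp4l1, Gzf1, Pla2g12a, Usp13, Actr1b and Ostn. Pearson r ran from 0.984 for Pcp4l1 to 0.966 for Ostn. These libraries share muscle, sex and depth, and the 2 muscles form separate clusters, so the values rank genes and carry no p. The ranking depended on the measure: by Spearman rho 0 of these 6 were among the first 6, while 5 were with a prior count of 0.5 in place of 2. Within the 5 soleus libraries r ran from 0.854 for Ostn to 0.973 for Usp13. Within the 5 TA libraries r was 0.975 for Pla2g12a and 0.0700 for Usp13. The libraries of each muscle still hold both sexes. With the group means removed, r was -0.149 for Gzf1 and 0.273 for Pla2g12a. For the others it then ran from 0.539 (Ostn) to 0.749 (Pcp4l1).

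**Figure D5:**
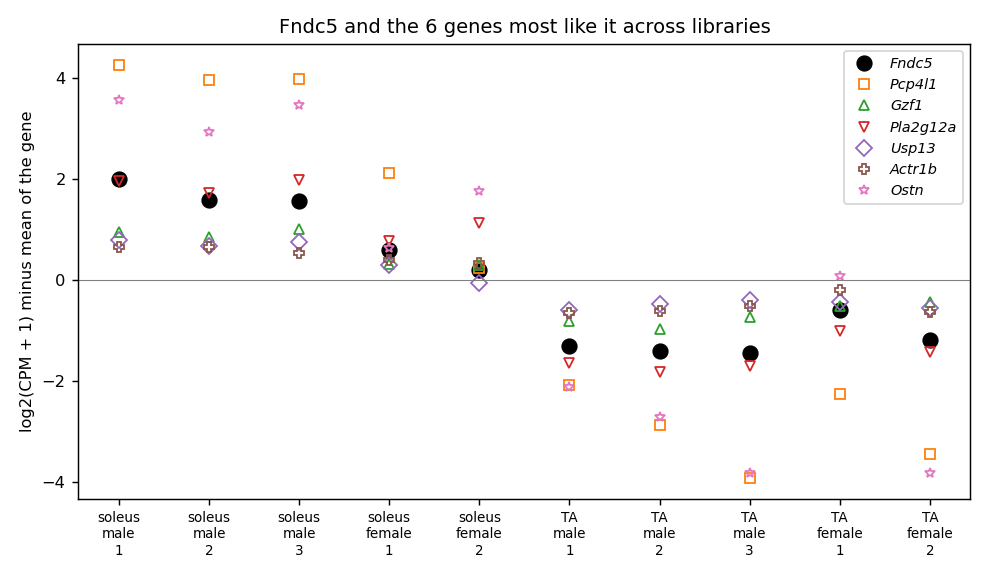
Level of Fndc5 (filled circles) and of the 6 genes most like it (open symbols) in each library, as log2(CPM + 1) minus the mean of the gene over the 10 libraries. For Fndc5 and each of the 6 genes the male soleus libraries lie highest, the female soleus libraries next and most TA libraries below 0.

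Pcp4l1, which encodes a small relative of the calmodulin-binding protein Pcp4, stood at 632, 509 and 517 CPM in soleus of males and at 141 and 37.7 CPM in soleus of females. In TA it was at 1.16 to 6.77 CPM, so its muscle difference (6.33 on the log2 scale, SE 0.54) exceeded that of Fndc5. Pla2g12a, a secreted phospholipase, had 161 to 192 CPM in soleus of males, 81.7 and 106 in soleus of females, 12.7 to 14.7 in TA of males and 17.1 and 23.3 in TA of females. Its groups thus fell in the same order as those of Fndc5 with no overlap between groups. Gzf1, a zinc finger repressor, also kept that order, with 110 to 123 CPM in male soleus, 74.2 and 75.1 in female soleus, 41.9 and 44.3 in female TA and 30.1 to 35.8 in male TA. Usp13, a deubiquitinase, and Actr1b, a dynactin subunit, had smaller muscle differences of 0.98 (SE 0.15) and 1.04 (SE 0.14). Usp13 had 708 to 768 CPM in male soleus and 425 and 548 in female soleus, while Actr1b had 365 to 400 and 321 and 332. Since the genes were picked for likeness to Fndc5, these values are a description. Of the 6, 5 had promoter windows in the RefSeq table, and the GC box was found in those of 2, Gzf1 and Usp13.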

How the data were processed

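Raw counts for each Ensembl transcript were deposited, 1 list per library, holding only transcripts with a count. Per the labels' protocols, total RNA was prepared with a kit for fibrous tissue and made into stranded cDNA libraries. The submitters' processing notes name bcl2fastq, Trimmomatic 0.32, FastQC and GRCm38.p4; the aligner and counter are not given in the sources used here. Transcripts were matched to GENCODE M21 by identifier without version (40359 of 40414) and summed to genes.

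Tests used edgeR 4.0.16 under R 4.3.3 (filterByExpr, 5115 genes, TMM scaling, also in every CPM value, quasi-likelihood F test). Muscle was tested with sex as covariate, and sex and the interaction in a model with 4 group means, with Benjamini-Hochberg adjusted p under 0.05 over all tested genes. For Fndc5, no p is given between muscles or for the interaction, which the choice of the gene used. DESeq2 1.42.0 was an alternative. Figures used matplotlib 3.10.9. The scripts were tested on simulated counts. The labels do not say how replicates were obtained, so p-values measure the spread between these samples.

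Same-numbered soleus and TA libraries of males correlated, after group means were removed, with r of 0.229, 0.183 and 0.239. In females r was 0.285. With 2 females, both same-numbered pairs must share 1 value and different-numbered pairs must take its negative. The number was therefore used as a replicate block in an alternative fit.

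The gene, the lists and the tests were chosen with earlier results of these data known. Genes named were Fndc5, the 6 genes most correlated with it (log2 CPM, prior count 2, mean at least 10 CPM, no gene models), up to 4 list members with the smallest p or not passing where that matters, and the 2 nearest tested genes on each side, of which 1 is not reported here. S100pbp, Hpca, Tmem54, Gm15906 and list members too low to test were named after their values were seen.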

Additional observations from a re-analysis of the deposited data

Results flagged for a closer look

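Of 24 sets of 5 libraries of 1 muscle, from Fndc5, the 6 genes most like it and 5 listed genes, 3 held a library far from the other 4, all in TA of female 1. Chance alone flags about 1 in 20 such sets. Fndc5 was at 177 CPM there, against at most 117 in the other TA libraries. Actr1b was at 219 CPM, against at most 177. Ostn was at 14.0 CPM, against at most 2.26. These genes were picked for moving together, so the 3 sets are not independent. The same library had the highest sum on the slow sarcomere list in TA, 73.3 CPM, against 28.2 to 43.9 in the others, and its tenocyte list summed to 685 CPM, against 154 to 494. Their part in the Fndc5 value was not tested.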

How the results depend on the processing

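The Fndc5 muscle difference kept its direction in all 18 fits, from 2.23 without male soleus replicate 1 to 2.69 without female soleus replicate 2, and was 2.39 with the replicate block. Its sex difference in soleus kept its direction but was called in 3 of the 10 fits with 1 library left out (-1.64 to -1.13), and was -1.31 and not called in the soleus libraries alone. The sex difference of its muscle difference, given with no test, was -1.83 by the DESeq2 Wald test, -1.89 with no filter on low counts and -1.83 with the replicate block, and ran from -2.15 to -1.57 with 1 library left out.

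Genes called for sex in soleus, sex in TA and the interaction numbered 123, 79 and 6 by the DESeq2 Wald test and 449, 240 and 58 with no filter. With 1 library left out they ran from 1 to 1022, from 1 to 162 and from 0 to 79. In fits on 1 muscle, added after the data were seen, sex gave 1 gene in soleus and 84 in TA. With no filter, 20009 genes were tested and the median muscle difference over all genes was 0.25, against 0.01.

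Members of the regulator list called higher in soleus numbered 1 with protein-coding transcripts only and 1 with the replicate block, and 0 to 1 with 1 library left out, against 2 to 4 called higher in TA. With no filter, 1 myokine and 1 irisin response gene were called higher in TA. With 1 library left out, 1 to 2 irisin response genes and 1 to 2 myokines were called higher in soleus, and 0 to 1 myokines in TA. Muscle differences that changed sign with 1 library left out were those of Ppargc1a (-0.30 to 0.055), Sync (-0.33 to 0.032), Adam10 (-0.27 to 0.041) and Fndc3a (-0.12 to 0.65). The replicate block changed no other call among the named genes; it could not be fitted to sex within a muscle, since each mouse has 1 sex. The causes of these changes were not tested. Genes with few counts, such as Fndc4 and Itgav, could not be compared at this depth.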
